A study of Drosophila melanogaster with 6 samples.

Results

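Odorant-binding protein (Obp) genes were examined on 6 one-colour oligonucleotide arrays of Drosophila melanogaster ovaries. The members were all genes whose symbol in the array annotation begins with Obp followed by a number. Of 11982 genes with a probe set of their own, 47 were members, represented by 50 probe sets, since Obp19a, Obp19c and Obp59a have a second set. Obp50b, Obp50c and Obp57d have only probe sets that the annotation assigns to 2 genes, so no level is given for them. lush, an odorant-binding protein gene with a symbol of another form, falls outside the rule.

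Both groups carried the bam[delta86] mutation, and the groups were 3 samples of bam[delta86] mutants and 3 of the stwl bam double mutant, for which the labels name no stwl allele. Without bam, the daughters of germline stem cells do not differentiate, so that these ovaries fill with early germ cells. stwl encodes Stonewall, a chromatin-associated protein needed to keep germline stem cells. The flies were reared on cornmeal and molasses food with dry yeast, and neither their age nor any removal of somatic tissue is stated in the labels. The labels do not say whether the replicates came from different crosses or dissections. The p-values therefore reflect only how far these samples differ, part of which may be technical.

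Odorant-binding proteins are small secreted proteins held together by disulphide bridges between conserved cysteines. They are best known from the fluid around olfactory and taste neurons, where support cells secrete them and where they bind hydrophobic molecules. Many members are made elsewhere too, among them several of the seminal fluid proteins that males transfer to females. Sequence divides the fly family into Classic members, Minus-C members that lack conserved cysteines, Plus-C members with additional ones, and Dimer members that hold a pair of odorant-binding domains. The genes lie in local clusters named after their chromosome band, so that Obp99a, Obp99b, Obp99c and Obp99d are near each other on chromosome arm 3R.

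Array background was set at the 95th percentile of the signal of 44 controls, probe sets for bacterial genes and artificial tags that are absent from flies, and it ran from 13.5 to 38.8 in deposited intensity. Most of the family lay at or near it. Of the 47 genes, 9 were above background on all 3 bam arrays, or 19.1%, where 60.5% of all genes with their own probe set were. In stwl bam 10 were above it on all 3 arrays, or 21.3%, against 62.5% of all genes. No array showed more than 22 of the 47 above background, the count of stwl bam replicate 1, which had the lowest background, and the other arrays showed 12 to 16. A further 19 genes, 40.4%, were below background on all 6 arrays, against 18.9% of all genes.

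The 11 genes above background on all arrays of a genotype were Obp18a, Obp19c, Obp19d, Obp49a, Obp56e, Obp57a, Obp83cd, Obp83ef, Obp99a, Obp99b and Obp99c. Of these, 8 met the criterion in both genotypes, or 17.0% of the 47, where 58.4% of all genes did. Obp49a met it in bam alone and Obp19c and Obp56e in stwl bam alone. By position, the criterion was met in bam by 5 of 11 members on 3R, 2 of 6 on X, 2 of 26 on 2R and none of the 4 on 2L and 3L. In bulk tissue, fewer cells that express a gene and less RNA per cell cannot be told apart.

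**Figure D1:**
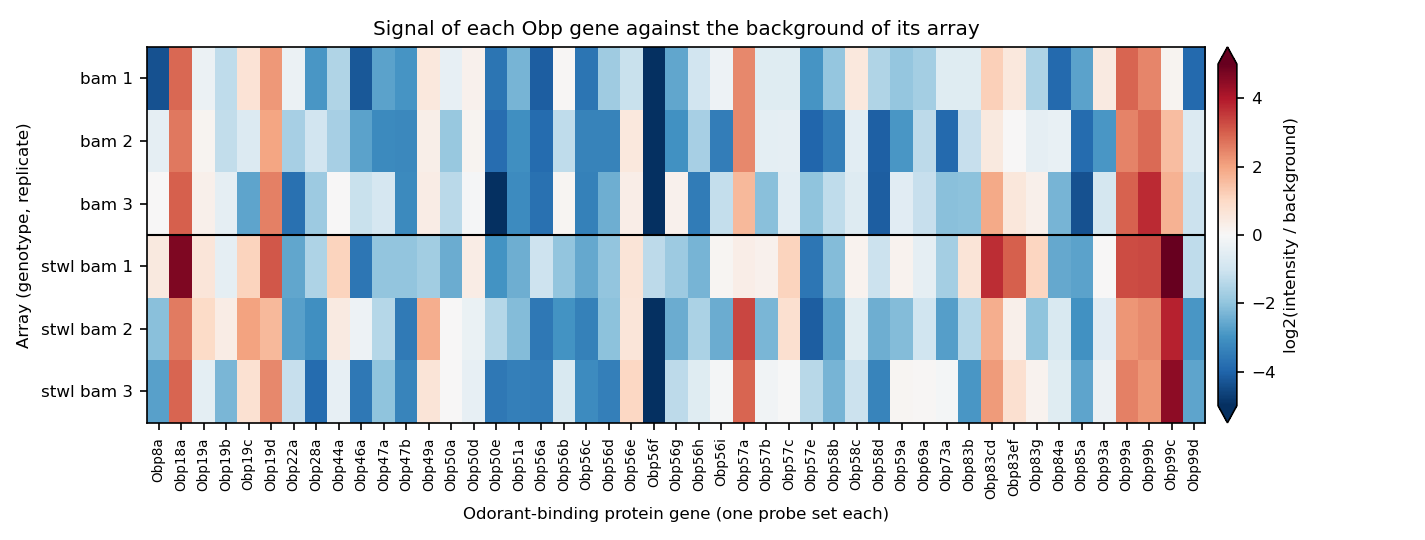
Colour shows log2 of deposited intensity over array background for the 47 Obp genes (columns) on the 6 arrays (rows, bam above the line and stwl bam below it), with white at background, red above it and blue below. Most columns are pale or blue. The 8 genes above background on all 6 arrays are red to nearly white, with Obp83ef pale on most arrays. Obp99c is the darkest red on the stwl bam arrays and nearly white on bam replicate 1.

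The genotypes were compared with limma on quantile-normalized intensities, as log2 after adding 7.9, an offset that shrinks the fold changes of dim genes. Of the 47 genes, 17 (36.2%) passed the filter on dim probe sets and were tested, against 73.1% of all genes. Of these 17, 2 were higher in stwl bam past an adjusted p of 0.05, Obp99c and Obp83cd, and 0 were lower. That is 11.8% called, below the 24.1% called among all 8764 genes tested, of which 11.1% were higher and 13.0% lower. At an unadjusted limma p under 0.05, 2 of the 17 were higher and 2 lower, where 17.4% of all genes tested were higher and 20.8% lower. When each gene was tested with its own spread alone, 0 of the 17 and 10.6% of all genes passed the adjusted threshold. The median difference was -0.05 on the log2 scale for the 17 and -0.04 for all genes tested. For 5 of the 17 (29.4%) all arrays of one genotype lay beyond those of the other, as they did for 42.7% of all genes tested.

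Obp99c, a Minus-C member on 3R, had the largest difference of the 17. Its deposited intensity was 24.3, 112.2 and 76 on bam replicates 1 to 3. On stwl bam replicates 1 to 3 it was 2208.9, 430.2 and 635.1. The groups did not overlap, and the lowest stwl bam array was 3.83 times the highest bam array. Within each genotype the arrays also differed widely. In bam, replicate 2 was 4.62 times replicate 1, which was only 1.09 times its array background, while in stwl bam replicate 1 was 5.13 times replicate 2 and 3.48 times replicate 3.

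On the normalized log2 scale Obp99c was at 6.21 ± 0.89 in bam and 9.72 ± 1.20 in stwl bam (mean ± SD, n = 3 each). It was thus higher by 3.51 ± 0.60 (SE) in stwl bam, 11.4-fold, with a 95% interval of 2.15 to 4.88 and a limma adjusted p of 0.00503. Obp99c was named when the members were chosen, with this rise already known, so its value is a description. The exact permutation test over the 6 arrays gave a two-sided p of 0.1, the smallest that 3 against 3 arrays allow. Without stwl bam replicate 1 the difference was 2.84, or 7.16-fold, and it still passed limma. Leaving out any other single array gave 2.99 to 4.01 and also kept the call, and with replicates 2 and 3 only it was 2.34, or 5.05-fold. When each gene was tested with its own spread alone, the adjusted p of Obp99c was 0.0811, which missed the threshold.

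**Figure D2:**
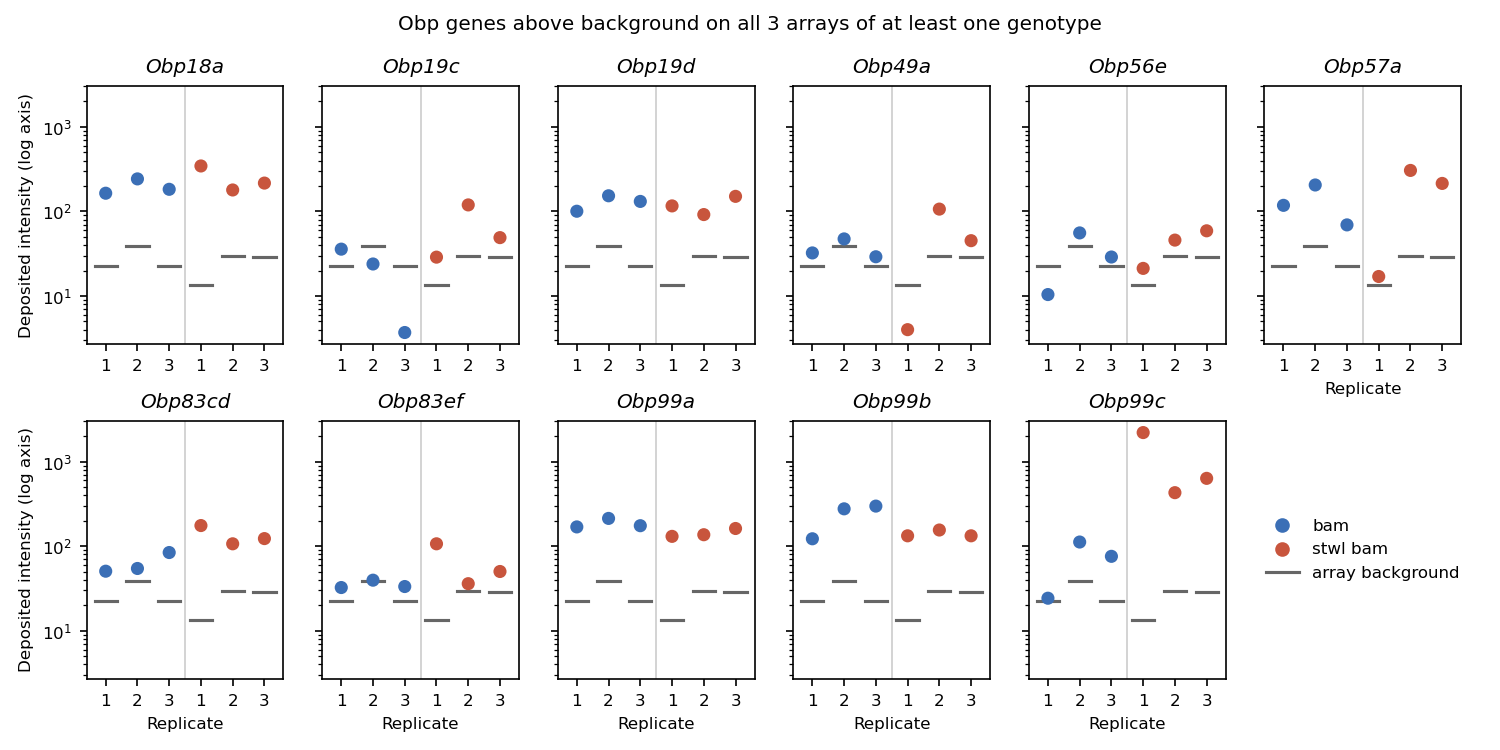
Each panel gives the deposited intensity (log axis) of 1 Obp gene on the 3 bam arrays (blue) and the 3 stwl bam arrays (red), with grey bars at the background of each array. Obp99c spans 24.3 to 2208.9 with no overlap of the genotypes, whereas most other panels overlap.

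No other member of the Obp99 cluster was higher past the threshold. Obp99a had intensities of 169.3, 213.4 and 175 in bam and 130.9, 136.9 and 162.2 in stwl bam. All 3 stwl bam arrays were below all 3 bam arrays, and the normalized difference was -0.47 ± 0.15 (SE), which did not pass (limma adjusted p = 0.0586). Obp99b, first described as a gene switched on sex-specifically in the male head fat body, had 122.6, 277 and 298.4 in bam and 132.9, 155.6 and 132.9 in stwl bam. Its genotypes overlapped through bam replicate 1, and its difference of -0.72 ± 0.25 did not pass (limma adjusted p = 0.0747). Without bam replicate 1 it was -1.02 and passed, at a limma adjusted p of 0.0137. Obp99d was below background on all 6 arrays, at 1.5 to 24.1, and was not tested.

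Flanking genes of Obp99c were looked up by their order on 3R in the RefSeq Release 6 gene table. Of the 3 protein-coding genes on either side, only Cap-D2 and CG7582 were tested, and they differed by -0.79 and -0.29 (limma adjusted p = 0.00644 and 0.390). Of the other Minus-C genes, Obp44a, known from glia of the nervous system, was above background on 1 bam and 2 stwl bam arrays. It had 7.8, 12.4 and 22.9 in bam and 29.2, 40.7 and 21.6 in stwl bam. The genotypes overlapped through bam replicate 3 and stwl bam replicate 3, and the difference of 0.68 did not pass (limma adjusted p = 0.280). Obp8a, a seminal fluid protein gene, was above background on 1 array of each genotype and did not pass either (limma adjusted p = 0.716).

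The Dimer genes Obp83cd and Obp83ef, neighbours on 3R, were both above background on all 6 arrays. Obp83cd had intensities of 50.7, 54.6 and 84.3 in bam and 175.7, 106.9 and 123.2 in stwl bam, with no overlap. It was higher in stwl bam by 0.87 ± 0.27 (SE) on the log2 scale, 1.83-fold, from 6.19 ± 0.42 to 7.07 ± 0.35 (SD, n = 3), at a limma adjusted p of 0.0466, just inside the threshold. The call ended without bam replicate 1, bam replicate 2, stwl bam replicate 1 or stwl bam replicate 3, where the difference was 0.83, 0.70, 0.67 and 0.94. It also ended with no filter on dim probe sets, with no intensity trend, with the replicate number as a block, when each gene was tested with its own spread alone, and with arrays centred on their medians, where the limma adjusted p was 0.0868.

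Obp83ef had 32.5, 39.7 and 33.4 in bam and 106.9, 36.1 and 50.3 in stwl bam. Only stwl bam replicate 1 stood clearly apart, and the difference of 0.39 did not pass (limma adjusted p = 0.492). Without that array it was -0.02. The gene models of Obp83cd and Obp83ef overlap in the RefSeq table, and whether their probes fall in the shared stretch is not known here.

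Among 7 Classic genes known mainly from the antenna (Obp19a, Obp19d, Obp28a, Obp59a, Obp69a, Obp83b and Obp84a), only Obp19d was above background on all arrays of a genotype. It had 100.5, 153.1 and 131.3 in bam and 116.2, 91.8 and 150.7 in stwl bam, the genotypes overlapped, and the difference was -0.26 with a 95% interval of -0.74 to 0.22. Its probe set has a suffix for probes that may match more than 1 transcript. Obp28a, an abundant antennal member, and Obp84a were below background on all 6 arrays. Obp19a, Obp59a, a gene needed to sense humidity, Obp69a and Obp83b were above it on some arrays only. Apart from Obp19d, these genes ranged from 1.5 to 58.7 in intensity on any array of their representative probe sets, with the highest value that of Obp19a on stwl bam replicate 2. Obp19a, the other of the 7 to be tested, differed by -0.06 and did not pass.

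Apart from Obp8a, given above with the Minus-C genes, 6 members are known from seminal fluid. Of these 6, Obp22a, Obp51a and Obp56f were below background throughout, and Obp56g and Obp56i exceeded it on 1 array each, so that these 5 genes stayed between 0.3 and 26.5 in intensity. Obp56e had 10.4, 55.7 and 28.9 in bam and 21.2, 45.8 and 59 in stwl bam, with overlap and a difference of 0.30 that did not pass (limma adjusted p = 0.664). Without bam replicate 1 that difference was -0.15.

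Of the 11 Plus-C genes, 6 were below background on all arrays: Obp46a, Obp47b, Obp50e, Obp58b, Obp58d and Obp85a. Obp50a, Obp50d, Obp58c and Obp93a exceeded background on some arrays, and all 10 of these genes stayed between 0.5 and 43.1. Obp50d was tested, with a normalized difference of -0.51 that did not pass (limma adjusted p = 0.219). Obp49a, which in taste organs mediates the suppression of sweet responses by bitter compounds, had 32.3, 47.3 and 29.1 in bam and 4, 106.5 and 45.1 in stwl bam. The stwl bam arrays thus held both the lowest and the highest value, and the difference of -0.21 did not pass (limma adjusted p = 0.849). Without stwl bam replicate 1 it was 0.59.

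Of the 15 remaining genes, 7 were below background on all arrays: Obp47a, Obp56a, Obp56c, Obp56d, Obp56h, Obp57e and Obp73a. Obp19b, Obp56b, Obp57b, Obp57c and Obp83g exceeded it on some arrays. Obp57c had 14.7, 28.1 and 15.7 in bam, below background on each array, and 29.2, 51.6 and 28.5 in stwl bam, above it on 2. The genotypes did not overlap, by a margin of 0.4 between bam replicate 2 and stwl bam replicate 3, and the difference did not pass (limma adjusted p = 0.237), nor did that of Obp83g (limma adjusted p = 0.957). Obp56b had 23.5, 16.1 and 24.1 in bam and 3.4, 3.8 and 16.9 in stwl bam, exceeded background on 2 bam arrays alone and was too dim to be tested. Obp18a had 164.1, 242.4 and 182.6 in bam and 344.7, 179.3 and 216.3 in stwl bam. Its genotypes overlapped, with a difference of 0.21 and a 95% interval of -0.33 to 0.74, and without stwl bam replicate 1 it was -0.06.

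Obp19c had 35.8, 23.9 and 3.7 in bam and 28.8, 119.4 and 49 in stwl bam. Its difference of 1.27 ± 0.56 (SE) was the second-largest of the 17, but bam replicate 1 exceeded stwl bam replicate 1 and the limma adjusted p was 0.141. Obp57a had 118, 205.4 and 69.3 in bam and 17, 305.3 and 214.3 in stwl bam. Here too the stwl bam arrays held both the lowest and the highest value, and the difference was -0.14 with a 95% interval of -1.93 to 1.66. Without stwl bam replicate 1 it was 0.93 and did not pass (limma adjusted p = 0.0868).

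**Figure D3:**
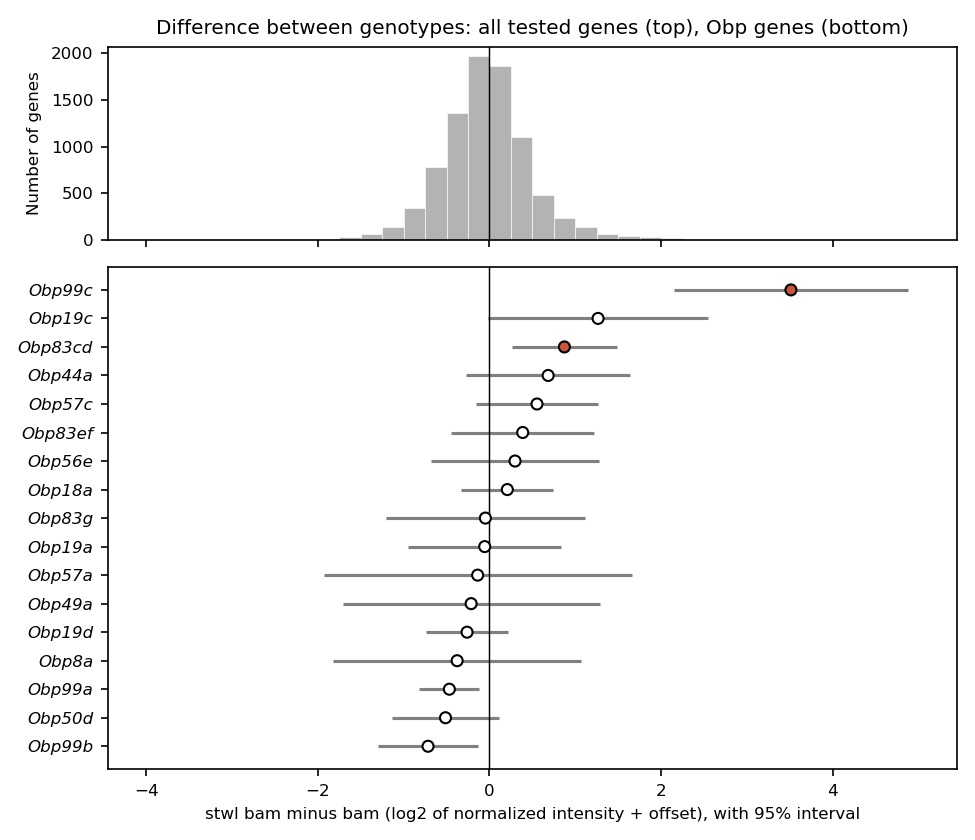
The lower panel gives the difference (stwl bam minus bam, log2) and its 95% limma interval for the 17 tested Obp genes, filled where the adjusted p passed, and the upper panel the number of all 8764 tested genes at each difference. Obp99c at 3.51 lies in the far right tail of all genes, while the other 16 lie between -0.72 and 1.27.

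Several members varied among the arrays of a genotype more than nearly all other genes, in bam as well as in stwl bam. The SD of log2 level among the stwl bam arrays was 1.85 for Obp57a, 1.55 for Obp49a and 1.20 for Obp99c, where the median of all tested genes was 0.19. Only 0.319%, 0.628% and 1.55% of the tested genes had a larger one. In bam the SD was 0.97 for Obp19c, 0.89 for Obp99c, 0.79 for Obp56e and 0.65 for Obp57a, and 1.03%, 1.62%, 2.61% and 4.54% of the tested genes had a larger one. That of Obp49a in bam was 0.06, below that of 85.2% of genes. The members named here are from the 11 above background on all arrays of a genotype. Of the other tested members, Obp8a, above background on 1 array of each genotype, had a larger bam SD than any of them, 1.11. Genes were not matched for level, and several of the large SDs include dim values. On stwl bam replicate 1, with a background of 13.5, Obp49a was at 4 and Obp57a at 17. In bam, Obp19c at 3.7 (replicate 3) and Obp56e at 10.4 (replicate 1) were below background. Other members varied less: 60.9% of genes in bam and 52.7% in stwl bam had a larger SD than Obp99a, and 43.1% and 24.0% a larger one than Obp19d. On the normalized scale stwl bam replicate 1 was the highest of its genotype for 4 of the 11 genes above background (Obp18a, Obp83cd, Obp83ef and Obp99c) and the lowest for 6 (Obp19c, Obp49a, Obp56e, Obp57a, Obp99a and Obp99b).

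The profile of Obp99c over the 6 arrays was set against that of every other tested gene by the Euclidean distance between log2 profiles, each centred on its own mean. The 5 nearest of 8763 genes were BomS6 at a distance of 0.56, BomS2 at 0.82, BomBc2 at 0.93, BomT2 at 1.23 and CG14566 at 1.26, where the median distance of all genes was 4.88. The Bom genes encode short secreted peptides that the Toll immune pathway induces. BomS6 had deposited intensities of 24.7, 80.5 and 44.4 in bam and 1882.6, 378.3 and 417.2 in stwl bam. Like Obp99c, it was lowest on bam replicate 1 and highest on stwl bam replicate 1. Background on bam replicate 1 was 22.35, so both genes were close to it there, as were BomS2 at 23 and CG14566 at 23.9. BomT2 at 31.5 and BomBc2 at 45 were further above it. CG14566 exceeded background on only 2 bam arrays.

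All 5 were highest on stwl bam replicate 1, which choosing them by nearness to Obp99c favours. With the deposited intensities of the same arrays the same 5 were nearest. Ranked by Pearson correlation over the 6 arrays instead, only BomS6 (r = 0.993) stayed among the first 5. The nearest Obp gene was Obp83cd, at 3.73 and rank 377, while Obp99a, Obp99b, Obp49a and Obp57a were among the genes farther away than the median.

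**Figure D4:**
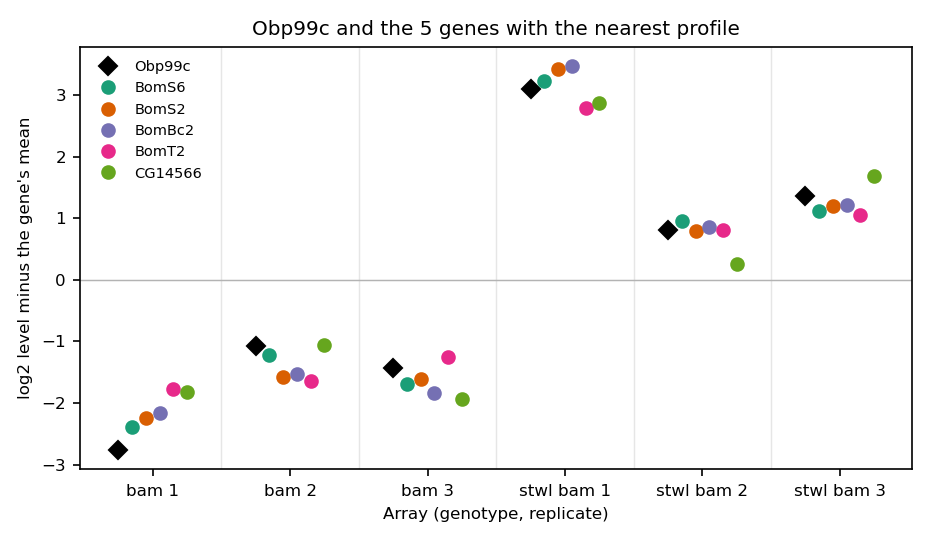
Points give the log2 level minus the gene's own mean on each of the 6 arrays, for Obp99c (black diamonds) and the 5 genes nearest to it. All 6 genes are below their mean on every bam array and above it on every stwl bam array, with stwl bam replicate 1 the highest. Choosing the 5 by nearness favours this likeness.

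Genes that act beside odorant-binding proteins were counted from a list of 22 other carriers, receptors, co-receptors and support genes of chemosensory organs. Of 18 with their own probe set 10 were tested, 0 were higher and 2 lower by limma, with a median difference of -0.39. Over all genes tested 24.1% were called, 11.1% higher and 13.0% lower. The 2 of 10 are not above the share called in either direction. They are above the share called lower, but 10 genes are too few to tell these apart. At an unadjusted limma p under 0.05, 1 of the 10 was higher and 2 were lower, where 17.4% and 20.8% of all genes tested were. Tests with each gene's own spread called 0 of the 10. Ir25a, an ionotropic co-receptor gene, had 37.3, 48.3 and 26.9 in bam and 2, 28.4 and 11.5 in stwl bam. Its deposited intensities overlapped, although it exceeded background on the bam arrays only. Ir25a was lower in stwl bam by at least 1.63-fold against background (limma adjusted p = 0.0468). Array backgrounds differ, so that a gene below background on all 6 arrays has 1.26-fold by that measure. Gr64f, a sugar receptor gene, had 61.9, 88.8 and 40.7 in bam and 19.8, 46 and 39.8 in stwl bam and fell by 0.92 (limma adjusted p = 0.0452). The carrier gene lush was below background on all 6 arrays, and Orco, the co-receptor of odorant receptors, exceeded it on 1. Of 7 neuron genes, 4 were tested, and 1 rose and 1 fell, too few to set against the 24.1% called over all genes.

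Markers of tissues that could accompany an ovary were counted against the 24.1% called among all genes tested. Of 12 fat body genes 2 rose, 1 fell and 9 did not pass, and their summed normalized intensity was 3209 to 4442 in bam and 3773 to 6784 in stwl bam, with overlap, and the median difference of the 12 was -0.30. Tsf1, an iron transport protein gene, rose by 3.21 and apolpp, a lipid carrier gene, by 1.47, while the lipase gene bmm fell by 0.53, and none of the 12 was below background on all 6 arrays. Of 10 haemocyte genes 7 fell, with a summed intensity of 8092 to 8458 in bam and 4663 to 5536 in stwl bam. Of 9 muscle genes 5 rose, with sums of 13554 to 14394 and 19427 to 25439. With each gene's own spread 1 of 12 fat body, 3 of 10 haemocyte and 2 of 9 muscle genes passed. Over all genes tested 10.6% did. Of the 6 tested male accessory gland genes and 4 tested gut genes 0 passed by limma, where 1 of each was lower at an unadjusted p under 0.05, and 0 passed with each gene's own spread. Of 14 accessory gland genes with a probe set, 7 were below background on all 6 arrays. The part of these tissues in the values of Obp99c was not tested.

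As a check of the labelled tissue, all 9 germ cell genes with their own probe set, vas, aub and piwi among them, were above background on all 6 arrays. By limma 3 of them rose (piwi, tud and bam) and 2 fell, and 0 passed with each gene's own spread. Of 7 tested follicle and escort cell genes 1 rose and 2 fell by limma, and 2 passed with each gene's own spread. Of the mutated genes, bam had 87.5, 103.2 and 99 in bam and 384.4, 174.9 and 287 in stwl bam, above background on all 6 arrays of flies labelled as carrying the same bam mutation. It was higher by 1.29 ± 0.26 (SE) in stwl bam (limma adjusted p = 0.00935). The stwl transcript did not differ detectably (-0.31, limma adjusted p = 0.396), and what either probe set covers is not known, so neither gene checks the labels. The actin controls for RNA integrity had a 5' signal of 0.129 to 0.183 of the 3' signal in bam and 0.524 to 0.675 in stwl bam. For eIF-4a these ratios ran from 0.0798 to 0.108 and from 0.417 to 0.448. For GAPDH the gap was smaller, from 0.124 to 0.152 in bam and from 0.258 to 0.374 in stwl bam. The part of this difference in the Obp values was not tested.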

How the data were processed

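RNA was extracted with TRIzol and labelled with biotin, per the labels' protocols. Each deposited value is the linear intensity of a probe set on an array. The submitters' processing notes name GCOS, without version or settings. The 2% to 98% trimmed mean was 220 on bam replicate 1 and 249 to 250 on the other arrays, so the 18952 probe sets less 183 controls were quantile-normalized. The offset of 7.9 added before log2 is the 25th percentile of the deposited intensities. Probe sets reaching the 40th percentile of their array on at least 3 arrays were kept, 11477 in all. A gene took its probe set with the highest mean.

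The test was limma 3.58.1 in R 4.3.3 (lmFit, eBayes with trend, two-sided), with p-values adjusted by Benjamini-Hochberg across the kept probe sets; it was tested on simulated data. Symbols were updated through gene numbers to RefSeq Release 6. Where every array of a genotype was below background, "at least" marks a fold against that background. The number of arrays limits the precision.

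Values on every array are given for members that passed or were above background on all arrays of a genotype. Obp44a, Obp56b and Obp57c met neither condition, and their array values were added with the data in view. From the lists, up to 3 passing genes are named. Cap-D2, CG7582, lush and Orco were chosen after their values were seen. Members and lists were chosen with earlier results of these data known, and the protein classes and background after the values were seen. Alternatives varied the background, threshold, filter, offset, normalization, test, prior, weights of arrays, replicate block and choice of probe set, and left out arrays.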

Additional observations from a re-analysis of the deposited data

How the results depend on the processing

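Obp99c kept its direction and its limma call under every alternative run except the plain test without pooling, where its difference of 3.51 had an adjusted p of 0.0811; leaving out 1 array gave 2.84 to 4.01. Of the 17 tested Obp genes, 1 (5.88%) was called with the replicate block, with median centring and at a threshold of 0.01, where 21.7%, 10.3% and 9.81% of all genes were. The plain test called 0 of the 17 and 10.6% of all genes, and a threshold of 0.1 called 4 of the 17 (23.5%), with Obp99a and Obp99b added, and 33.5% of all genes. With no filter 1 of 47 was called (2.13%), against 14.4% of all genes; leaving out 1 array gave 1 to 2 of 17. The replicate block ended the call of Obp83cd (limma adjusted p = 0.0512). Same-numbered samples showed no shared deviation (correlations of -0.05, -0.03 and 0.00), and no sample correlated best with the same-numbered sample of the other genotype. Such correlations cannot show whether same-numbered samples were prepared together. With no intensity trend Obp50d was called in place of Obp83cd. A filter at the 60th percentile left 7 Obp genes and called 3 of them (42.9%), Obp99a among them, against 34.1% of all genes.

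Over all genes 2116 were called, 927 by the plain test, 905 with each array centred on its median over all probe sets, 1251 with replicates 2 and 3 only (an alternative chosen after seeing the data), and 1075 to 2226 with 1 array left out, the lowest without bam replicate 1; leaving out replicate 3 gave 1325 (bam) and 1306 (stwl bam). Taking the median over the kept probe sets instead, a choice made after the value of 905 was seen, called 2132 genes and 2 Obp genes. With intensities as deposited 967 were higher and 775 lower, against 974 and 1142, and the median of the 17 was 0.07 in place of -0.05.

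Differences that passed neither before nor after changed sign under at least 1 alternative for 8 of the 17 tested members. With replicates 2 and 3 only they were -0.11 for Obp18a, 0.58 for Obp49a, 0.96 for Obp57a and -0.011 for Obp83ef. With array weights Obp57a was at 0.22 and Obp83g at 0.13. With deposited intensities and with rescaling to 1 trimmed mean, Obp19a was at 0.067 and 0.030 and Obp83g at 0.054 and 0.028. Leaving out 1 array gave -1.02 to 0.019 for Obp8a, -0.055 to 0.41 for Obp18a, -0.43 to 0.24 for Obp19a, -0.92 to 0.59 for Obp49a, -0.15 to 0.62 for Obp56e, -0.80 to 0.93 for Obp57a, -0.024 to 0.71 for Obp83ef and -0.42 to 0.40 for Obp83g. The cause was not tested. The number of genes above background on all arrays of a genotype was 13 with the 90th percentile of the controls and 9 with the 99th, against 11. With 1 background for all arrays it was also 11, but Obp57c took the place of Obp56e. In that setting 9 genes, against 10, were above background on all stwl bam arrays. With the 99th percentile Obp99c was above background on 5 of 6 arrays.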

Other observations

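The values that follow were chosen after they were seen. EbpIII, a secreted carrier gene of another family, had deposited intensities of 707.7, 736.9 and 722.7 in bam and 3504.1, 939 and 1294.3 in stwl bam. It was higher by 1.11 ± 0.39 (SE) and did not pass (limma adjusted p = 0.0714), with stwl bam replicate 1 highest, as for Obp99c. The probe set shared by Obp50b and Obp50c that passed the filter had 8.3, 34.9 and 7.5 in bam and 17, 30.2 and 53.2 in stwl bam. Its difference of 0.72 did not pass (limma adjusted p = 0.253), and the gene models of Obp50b and Obp50c overlap. The second probe sets of Obp19a and Obp59a were below background on all 6 arrays, and that of Obp19c was above it on 1. The second set of Obp19c had 21.8, 19.4 and 13.3 in bam and 13.9, 4.6 and 21.1 in stwl bam. Its mean log2 level was 4.77 in bam and 4.29 in stwl bam, opposite in direction to the representative set. It was too dim to be tested.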
